A study of Macaca fascicularis with 6 samples.

Results

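Genes for 7 members of the fibroblast growth factor (FGF) family were described in single cells of cynomolgus monkey lung, namely the ligands FGF2, FGF7, FGF9 and FGF10 and the receptors FGFR1, FGFR2 and FGFR3. They were taken by symbol from the gene lists of the 6 libraries, where each symbol had 1 row, and they are 7 of 28623 genes. The animals were male and 3 to 5 years old. The control group (replicates 1, 2 and 3, labelled normal) received saline, and the asthma group (replicates 8, 10 and 11) was sensitized to antigen of the roundworm Ascaris suum and challenged with it through the nose. Each animal gave 1 droplet-based library of dissociated lung, so a group is 3 animals and each p-value rests on the spread between them. Of 35133 barcodes 24235 were retained, from 3200 to 4620 in a library, with median depths from 3835 to 5048.5 UMIs (unique molecular identifiers, 1 for each captured transcript). Among 34996 distinct barcode sequences 137 occurred in more than 1 library.

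FGFs are secreted or matrix-bound ligands that pair tyrosine kinase receptors on the cell surface, with heparan sulfate as a cofactor, and the receptors signal through the adaptor FRS2 to the MAP kinase pathway. In the lung, FGF7 and FGF10 are known as mesenchymal ligands of the epithelial splice form of FGFR2, FGF9 as a ligand of the mesothelium and epithelium, and FGF2 as a matrix-bound ligand of broad receptor range. The counts are per gene, so the splice forms of a receptor that decide which ligand it binds could not be told apart.

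Cells were put into compartments by clusters and marker genes, and the 7 genes and the listed FGF pathway genes had no part in the clustering or in the marker lists. The T and NK-like cells were the most numerous (10141 cells), and the compartments that carried the members were small: 659 fibroblast-like, 282 myofibroblast-like, 677 capillary endothelial (EC)-like, 297 larger-vessel EC-like, 510 mesothelial-like, 359 AT2-like, 266 AT1-like, 154 basal-like and 96 club-like cells. AT1 and AT2 are the thin gas-exchanging and the surfactant-making cells of the alveolus. Leading markers of the names were high, though not every listed one. Over 6 libraries SFTPC averaged 229138 CPM (UMIs of a gene scaled to 1e6 UMIs in all) in AT2-like cells and ITLN1 60262 CPM in mesothelial-like cells. DCN averaged 26847 CPM in fibroblast-like cells. AGER averaged 11916 CPM over the 4 libraries with enough AT1-like cells. At 0 CPM were CALB2 in mesothelial-like, BTNL9 in capillary EC-like, TFF3 in lymphatic EC-like and MUC5B and BPIFA1 in club-like cells. LTF in club-like, SELE and GJA5 in larger-vessel EC-like and LGR6 in myofibroblast-like cells were below 10 CPM. CD5 in T and NK-like and XCR1 in dendritic-like cells were also below 10 CPM. A level below is the CPM over the summed UMIs of a compartment in 1 library, given where the library held at least 10 of its cells and listed in the order of replicates 1, 2 and 3 (control) and 8, 10 and 11 (asthma). Sub-clusters with markers of another class (2264 cells) and clusters without a clear name (2405 cells) were kept out of the named compartments. These cells were counted from dissociated tissue, so fewer cells of a type and poorer release of that type cannot be told apart.

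The members divided between compartments. Levels of FGF7 and FGFR1, and in smaller amounts FGF2 and FGF10, were highest in the fibroblast and muscle-like cells. Highest for FGF9 were the mesothelial-like cells, for FGFR2 the epithelial-like cells, and for FGFR3 the endothelial-like cells with the epithelial-like cells close behind. Each highest compartment was set against the 10 others within libraries on the log2(CPM + 10) scale with a two-sided exact sign-flip permutation test. The highest compartment was picked from the same levels that the test compares, so its p-values describe how alike the libraries were and are not independent evidence of the order. All 6 libraries entered 49 of the 70 comparisons, and in 40 of these 49 they gave the same direction, at the smallest p that 6 libraries allow (exact permutation p = 0.0312). The other 21, against plasma-like, mast-like and dendritic-like cells, had too few libraries for the exact permutation test to go below p = 0.125. After Benjamini-Hochberg adjustment over all 70 the lowest adjusted p of this exact permutation test was 0.0547, so 0 of 70 passed 0.05, whereas over the 49 alone it was 0.0383 and 40 passed. FGFR3 in endothelial-like against epithelial-like cells differed by 0.19 on the log2 scale and was higher in 4 of 6 libraries (exact permutation p = 0.3438).

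**Figure D1:**
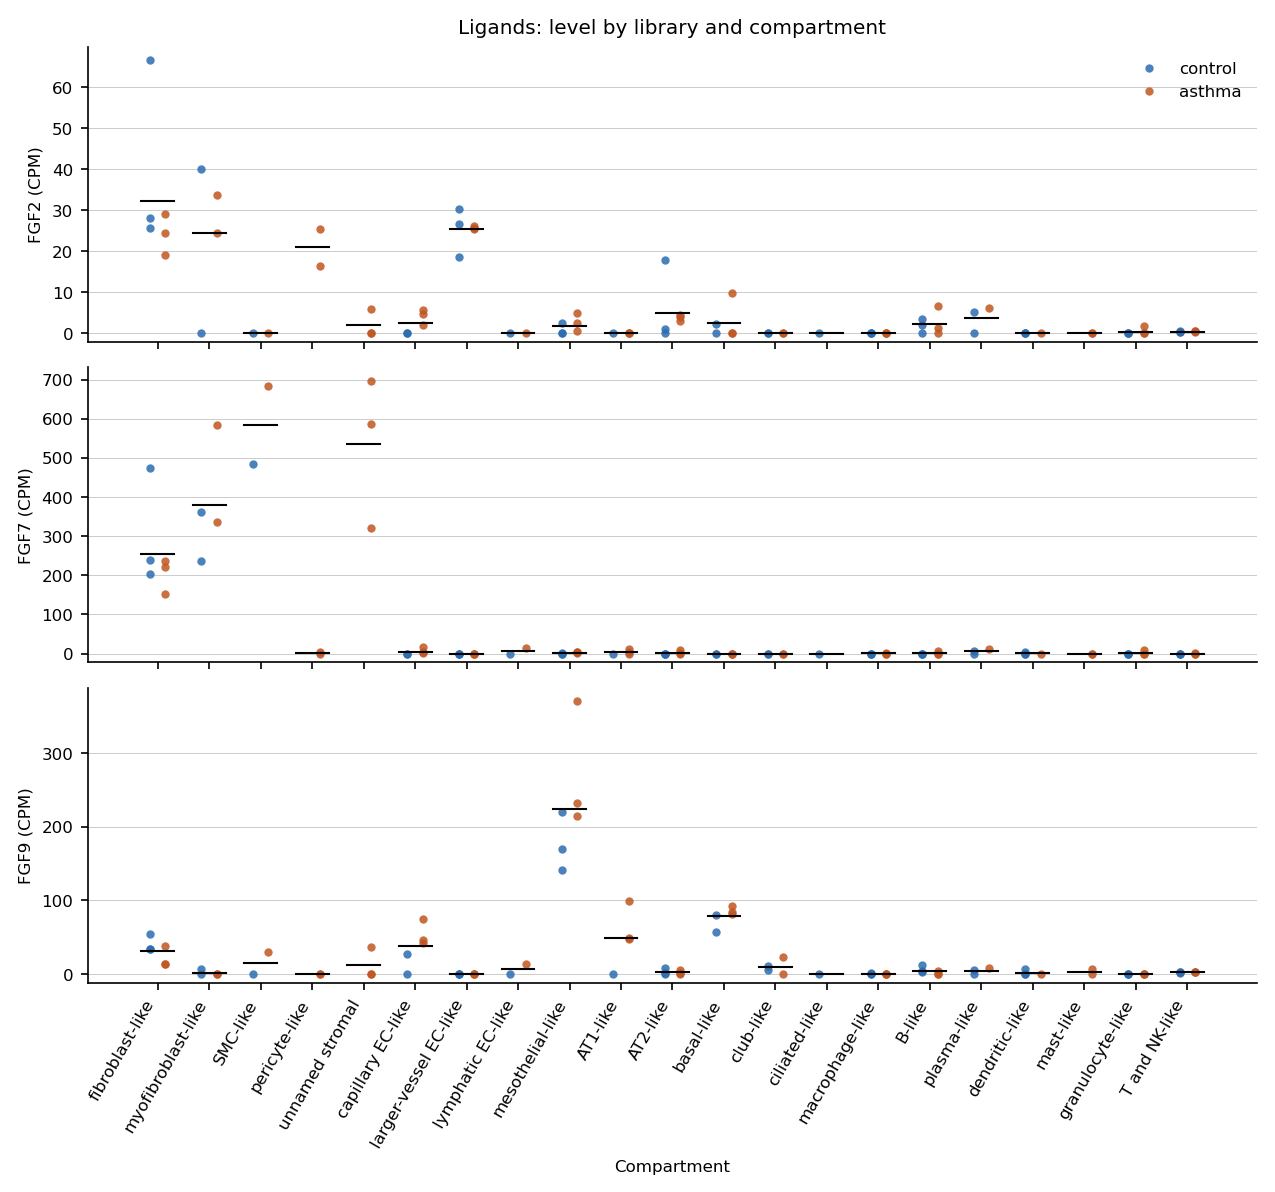
Level of FGF2, FGF7 and FGF9 in CPM (vertical axes) in each compartment (horizontal axis). A point is 1 library with at least 10 cells, blue for control and orange for asthma, and the black bar is the mean over libraries; FGF7 stands in fibroblast-like, myofibroblast-like, SMC-like and unnamed stromal cells and FGF9 in mesothelial-like cells.

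Among the ligands FGF7, also called keratinocyte growth factor, lay in fibroblast-like, myofibroblast-like and smooth muscle (SMC)-like cells. In fibroblast-like cells its level was 239, 202 and 475 CPM in the control libraries and 153, 237 and 222 CPM in the asthma libraries. Control replicate 3 stood far above the others, and the groups overlapped. Myofibroblast-like cells, led by SOSTDC1, gave 361 and 235 CPM in controls 1 and 3, against 336 and 583 CPM in asthma replicates 8 and 11, with too few cells in the remaining libraries. SMC-like cells, 71 in all, had the highest mean of any named compartment, with 484 CPM in control replicate 3 and 684 CPM in asthma replicate 11, the 2 libraries with enough of them. Fibroblast-like cells alone held 56.9% of all 1896 UMIs of FGF7 in retained cells, and myofibroblast-like cells another 17.7%. An unnamed group of stromal cells, 121 in all and led by ASIP or ITGA8, reached 697, 322 and 586 CPM in the asthma libraries, while the controls held 7 such cells. In pericyte-like cells, the mural cells of small vessels, FGF7 had 1 UMI in 158 cells, and in larger-vessel EC-like cells it had 0 UMIs in 297 cells, which allows a share of up to 1.01% of cells with a UMI. UMIs of FGF7 were found in 61.3% of fibroblast-like cells (median depth 5436 UMIs) and in 0.069% of T and NK-like cells (median depth 3659 UMIs), which should lack it. With every cell of at least 1500 UMIs thinned to 1500 UMIs these shares were 27.1% and 0.0206%.

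Within the fibroblast-like cells FGF7 also differed between 2 sub-clusters. The 245 cells led by RBP4 had 382 CPM with a UMI in 76.3% of cells, and the 414 cells led by CCL11 had 190 CPM with a UMI in 52.4%. FGFR1 had 321 and 262 CPM in the same sub-clusters, summed over libraries, and its order within libraries is not given. FGF7 was the higher in the RBP4-led cells in each of the 5 libraries that held both, and asthma replicate 11 held 0 RBP4-led cells. These sub-clusters were found by clustering, so no test is given.

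FGF9 was the ligand of the mesothelial-like cells, the lining of the pleura. Its level there was 141, 170 and 220 CPM in the control libraries and 232, 370 and 215 CPM in the asthma libraries. Asthma replicate 11 lay below control replicate 3, so the groups overlapped, and asthma replicate 10 was the highest. A UMI of FGF9 was present in 75.5% of the 510 mesothelial-like cells (median depth 9627.5 UMIs) and in 0.947% of T and NK-like cells. Thinned to 1500 UMIs per cell these shares were 29.96% and 0.382%. All 4 retained mesothelial-like sub-clusters held it, from 189 CPM in the one led by PLA2G2A, a secreted phospholipase, to 438 CPM in the one led by NR4A1, an immediate-early gene. Most of these cells came from 1 library each, 85 of the 110 PLA2G2A-led cells from asthma replicate 8 and 82 of the 97 NR4A1-led cells from asthma replicate 10. In asthma replicate 8, the only library with at least 10 cells of both, the levels were 201 and 559 CPM. The 20 immediate-early genes found in the files, FOS the most abundant, summed to 9145 CPM in control replicate 2 and 10130 CPM in asthma replicate 10, against 2121 to 3993 CPM in the other 4 libraries. Asthma replicate 10 was thus high in both and control replicate 2 in the immediate-early sum alone, and the part of these genes in the FGF9 level was not tested.

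Outside the mesothelium, FGF9 was detected in basal-like cells, the progenitors of the airway epithelium. The level was 57.8 and 79.9 CPM in controls 1 and 3, against 81.8, 92.6 and 84.1 CPM in the asthma libraries. Marker sums moved with the groups there without overlap, and their part was not tested. The 10 mesothelial markers, 7 with a UMI and MSLN the most abundant, had 23.1 and 172 CPM against 442, 336 and 280 CPM, and the immediate-early genes 23950 and 20440 CPM against 10800, 13330 and 8243 CPM. Macrophage markers had 139 and 67.8 CPM against 196, 161 and 140 CPM. Dendritic markers had 34.7 and 43.8 CPM against 57.3, 92.6 and 105 CPM. Smooth muscle markers had 11.6 and 9.85 CPM against 24.5, 14.6 and 35.1 CPM. In AT1-like cells FGF9 was at 98.7, 47.7 and 49.5 CPM in the asthma libraries, and control replicate 1, the only control library with enough AT1-like cells (16), had 0 UMIs, which allows up to 18.8% of cells with a UMI by counting error alone, in 1 animal. AT2-like cells had 6 UMIs of FGF9 in 359 cells. The fibroblast-like cells held FGF9 in 14.6% of cells, at 54.8, 34.3 and 34.5 CPM in the control libraries and 14.4, 13.6 and 38.2 CPM in the asthma libraries. Mesothelial markers summed there to 66.6, 22.3 and 527 CPM in the control libraries and 347, 182 and 193 CPM in the asthma libraries, an order that is not that of FGF9. Of those 10 markers 9 had a UMI there, PLA2G2A the most, and their part in the FGF9 level was not tested. Of 2705 UMIs of FGF9 in all retained cells, mesothelial-like cells held 52.4% and the mixed sub-clusters 22.0%.

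FGF2, a matrix-bound ligand that acts on many cell types, was sparse, with 270 UMIs in all retained cells. Fibroblast-like cells had 66.6, 25.7 and 28.1 CPM in the control libraries and 24.5, 19.0 and 29.1 CPM in the asthma libraries. Apart from control replicate 1 these libraries lay close together. Larger-vessel EC-like cells had 30.3, 18.6 and 26.7 CPM in the control libraries and 25.6, 26.0 and 25.4 CPM in the asthma libraries, whereas capillary EC-like cells had 8 UMIs in 677 cells. FGF2 was found in 14.9% of fibroblast-like, 11.8% of larger-vessel EC-like and 0.148% of T and NK-like cells. Thinned to 1500 UMIs the shares were 4.09%, 6.05% and 0.0516%. The order of fibroblast-like and larger-vessel EC-like cells thus differed between the full and the thinned shares. The thinning was a single random draw over cells with at least 1500 UMIs, and this order was not tested.

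FGF10, the ligand that drives branching of the embryonic lung, was close to the limit of detection. It had 10 UMIs in 24235 cells, 2, 0 and 2 in the control libraries and 3, 1 and 2 in the asthma libraries. All 10 lay in the fibroblast and muscle-like cells, 6 in fibroblast-like, 2 in SMC-like and 2 in unnamed stromal cells. No difference between the groups could be detected at this depth, and the gene passed the filter on low counts in no compartment.

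**Figure D2:**
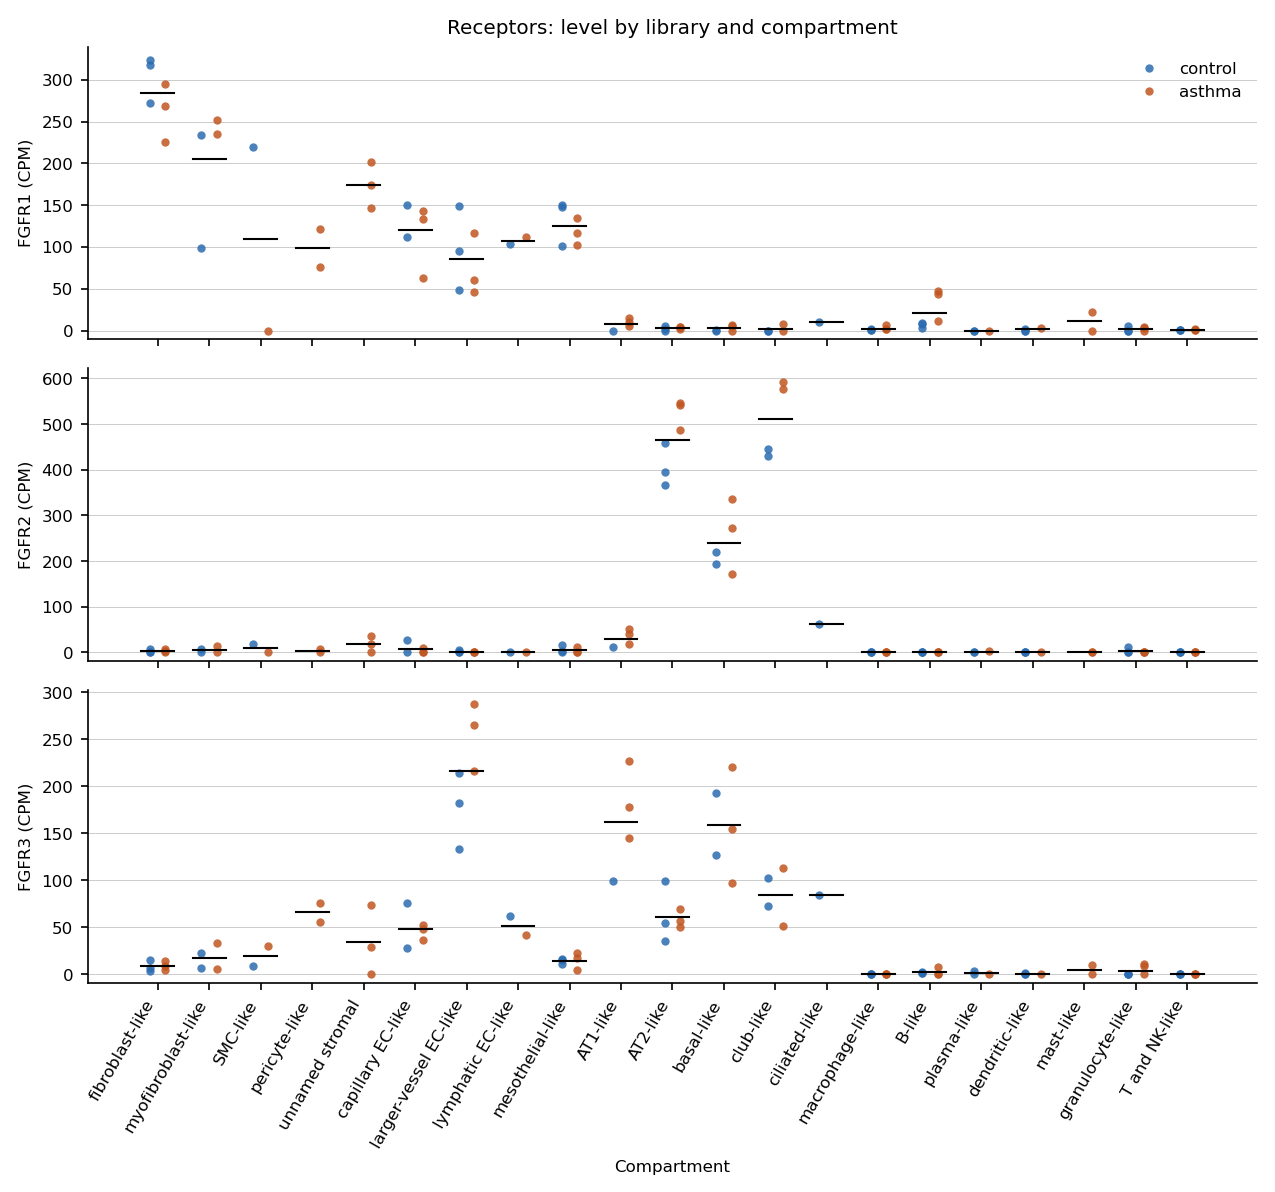
Level of FGFR1, FGFR2 and FGFR3 in CPM (vertical axes) in each compartment (horizontal axis), drawn as for the ligands: a point is 1 library, blue for control and orange for asthma, and the black bar is the mean over libraries. FGFR1 is spread over fibroblast, muscle, endothelial and mesothelial compartments, FGFR2 stands in AT2-like, club-like and basal-like cells, and FGFR3 in larger-vessel EC-like, AT1-like and basal-like cells.

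Of the receptors, FGFR1 lay in mesenchymal, mesothelial and endothelial compartments. Fibroblast-like cells had 317, 273 and 324 CPM in the control libraries and 295, 226 and 269 CPM in the asthma libraries. The 6 libraries lay within a narrow span, with asthma replicate 10 lowest. Mesothelial-like cells had 101, 147 and 150 CPM in the control libraries and 135, 116 and 103 CPM in the asthma libraries. FGFR1 was therefore present beside FGF9 in that compartment, in 63.5% of its cells. Its level in fibroblast and muscle-like cells exceeded that in mesothelial-like cells by 1.01 ± 0.20 (SD, n = 6) and that in endothelial-like cells by 1.37 ± 0.46 (SD, n = 6) on the log2(CPM + 10) scale.

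Endothelial levels of FGFR1 overlapped between vessel types. In capillary EC-like cells FGFR1 had 112 and 151 CPM in controls 1 and 2, against 143, 62.3 and 134 CPM in the asthma libraries. Larger-vessel EC-like cells had 95.2, 149 and 48.5 CPM in the control libraries and 60.5, 117 and 46.6 CPM in the asthma libraries. The capillary sub-cluster led by SEMA3G, a semaphorin, had 150 CPM and the one led by ACE, the angiotensin-converting enzyme, 81.2 CPM. The same sub-clusters had FGF9 in the reverse order, 34.2 CPM in the SEMA3G-led and 69.3 CPM in the ACE-led cells. Both orders held in each of the 3 asthma libraries, although for FGFR1 in asthma replicate 10 the levels were 62.7 and 62.2 CPM, and no control library had 10 cells of both. Epithelial cells had little FGFR1, with a UMI in 3.41% of them, against 0.286% of T and NK-like cells and 75.4% of fibroblast-like cells (32.9% thinned).

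FGFR2, the receptor of FGF7 and FGF10 in epithelium, had the sharpest division. In AT2-like cells it had 459, 366 and 395 CPM in the control libraries and 541, 488 and 546 CPM in the asthma libraries. Every asthma library lay above every control library, although the difference did not pass the test given below. Club-like cells, secretory cells of the small airways, had 430 and 446 CPM in controls 1 and 3, against 592 and 576 CPM in asthma replicates 10 and 11. Basal-like cells had 220 and 194 CPM in controls 1 and 3, against 172, 273 and 336 CPM in the asthma libraries. In AT1-like cells, which lie beside AT2 cells and arise from them, FGFR2 was at 11.1 CPM in control replicate 1 and at 50.2, 17.9 and 40.3 CPM in the asthma libraries. These AT1-like values lay below those of AT2-like cells in each of the 4 libraries with both.

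Shares of cells gave the same picture for FGFR2. A UMI was present in 91.6% of AT2-like cells (median depth 10867 UMIs), 97.9% of club-like cells (12851.5), 77.9% of basal-like cells (8935.5), 14.3% of AT1-like cells (3822) and 0.187% of T and NK-like cells (3659). Thinned to 1500 UMIs per cell the shares were 53.6%, 57.9%, 31.8%, 5.5% and 0.031%. AT2-like cells held 57.6% of the 3309 UMIs of FGFR2 in retained cells.

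FGFR3 marked a different set of cells in the same tissue. Larger-vessel EC-like cells had 182, 214 and 134 CPM in the control libraries and 265, 217 and 288 CPM in the asthma libraries. Each asthma library was above each control library, by a narrow margin between asthma replicate 10 and control replicate 2. The sub-cluster led by ACKR1, a venular chemokine-binding receptor, had 266 CPM and the one led by GASK1B had 147 CPM, summed over libraries. The ACKR1-led cells were the higher in 4 of the 5 libraries with at least 10 cells of each, and in asthma replicate 8 they had 248 CPM against 295 CPM. Capillary EC-like cells were lower, with 27.9 and 75.4 CPM in controls 1 and 2, against 36.8, 48.6 and 52.5 CPM in the asthma libraries. In the epithelium AT1-like cells had 99.5 CPM in control replicate 1 and 178, 227 and 146 CPM in the asthma libraries. Basal-like cells had 127 and 193 CPM in controls 1 and 3, against 221, 97.5 and 154 CPM in the asthma libraries. AT2-like cells had 35.9 to 99.4 CPM over the 6 libraries. AT1-like and AT2-like cells thus ranked oppositely for FGFR2 and FGFR3: in all 4 libraries with both, FGFR2 was higher in AT2-like and FGFR3 in AT1-like cells.

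Asthma was compared with control by edgeR's quasi-likelihood test on UMIs summed per library and compartment, adjusted over all genes tested there, and a gene was called at an adjusted p under 0.05 with an absolute log2 fold change over 0.25. Of 45 pairs of a member and a compartment that passed the filter on low counts, 1 was called and 10 had an unadjusted p under 0.05. Over all genes tested in the same 15 compartments 10.1% had an unadjusted p under 0.05. DESeq2 called the same 1. The called pair was FGF9 in endothelial-like cells. The fitted difference was positive in 25 pairs and negative in 20, and nested compartments share cells, so the pairs are not independent.

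**Figure D3:**
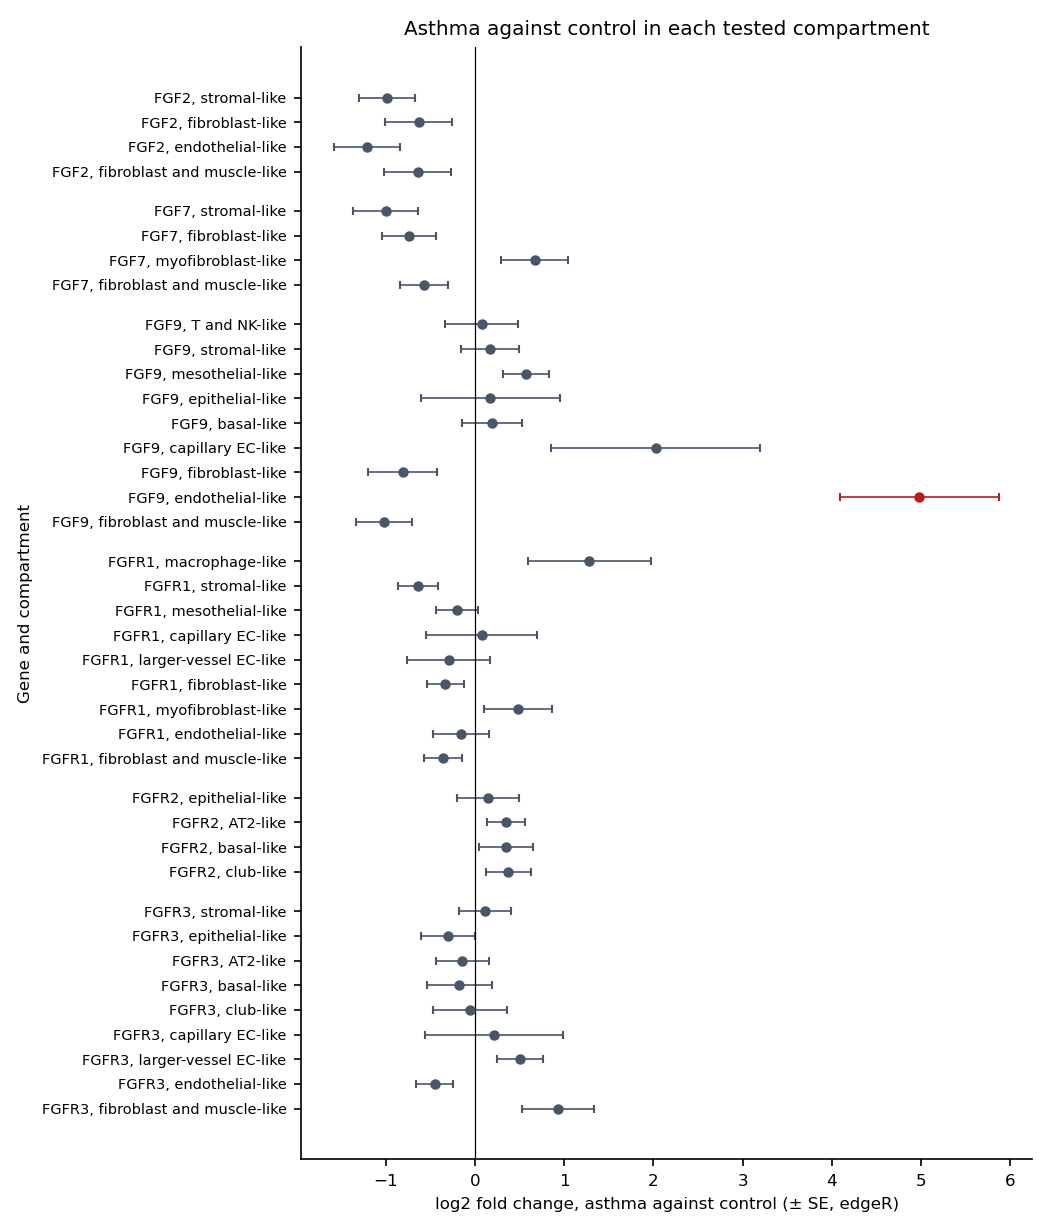
Fitted log2 fold change of asthma against control (horizontal axis, ± SE, edgeR) for each member and compartment tested (vertical axis), without the sum over all retained cells. The called pair, FGF9 in endothelial-like cells at 4.98, is red and the pairs that were not called are grey.

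The share of all tested genes that was called gives the background. It was 5.93% in endothelial-like cells, where 1 of 4 members was called, and 2.03% in stromal-like cells, where 0 of 5 members was called. It was 0.419% in fibroblast and muscle-like (0 of 5 members), 0.536% in fibroblast-like (0 of 4) and 0.357% in myofibroblast-like cells (0 of 2). In all retained cells it was 0.0839% (0 of 6), in mesothelial-like cells 0.0204% (0 of 2), in AT2-like cells 0.0163% (0 of 2) and in basal-like cells 0.04% (0 of 3). It was 0% in the T and NK-like, macrophage-like, epithelial-like, club-like, capillary EC-like and larger-vessel EC-like cells, where no gene was called by edgeR. In those 6 compartments 710, 578, 664, 178, 588 and 306 genes had an unadjusted p under 0.05, and DESeq2 called 73, 32, 5, 0, 4 and 14 genes.

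FGF9 in endothelial-like cells had 1, 0 and 0 UMIs in the control libraries and 22, 49 and 35 UMIs in the asthma libraries. As levels these were 3.29, 0 and 0 CPM against 22.1, 53.7 and 33.9 CPM, so the groups did not overlap. The fitted log2 fold change was 4.98 ± 0.89 (SE; edgeR adjusted p = 0.016). The call was lost without control replicate 3 (edgeR adjusted p = 0.0962), asthma replicate 10 (0.0541) or asthma replicate 11 (0.0507), and the direction was kept in each. Because the control value rests on 1 UMI, the ratio of the pooled rates, 43.7, has a 95% exact counting interval from 7.68 to 1744, which covers counting error only. The endothelial-like cells of the groups were not of the same make-up: the controls held 12, 13 and 9 capillary EC-like cells and the asthma libraries 178, 187 and 278. All but 1 of the 106 asthma UMIs and the 1 control UMI came from capillary EC-like cells, and larger-vessel EC-like cells had 0 UMIs of FGF9 in all 6 libraries (297 cells, up to 1.01%). Within capillary EC-like cells the levels were 27.9 and 0 CPM in controls 1 and 2, against 42.7, 74.5 and 47.0 CPM in the asthma libraries. There the fitted log2 fold change was 2.03 ± 1.17 (SE; edgeR adjusted p = 0.586), in a comparison whose median over all genes was 0.31. The pooled ratio within capillary EC-like cells was 4.23 with a counting interval from 0.743 to 169. In endothelial-like cells the sums of marker lists named for other cell types also moved without overlap, and their part was not tested. AT1 markers, EMP2 the most abundant, had 895 to 1107 CPM in control and 1499 to 1891 CPM in asthma. Ciliated markers (TPPP3) had 36.6 to 121 against 340 to 514 CPM and mast markers (GATA2) 290 to 357 against 523 to 594 CPM. Granulocyte markers were higher (20.1 to 63.4 against 66.8 to 97.0 CPM) and lymphatic EC markers lower (692 to 2307 against 447 to 619 CPM). Some of these lists also differed between vessel types. The AT1 sum was 1450 to 2166 CPM in capillary EC-like and 982.5 to 1292 CPM in larger-vessel EC-like cells. In the same order the ciliated sum was 446 to 760 against 26.0 to 46.5 CPM. The mast sum was 418 to 712 against 307 to 465 CPM.

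**Figure D4:**
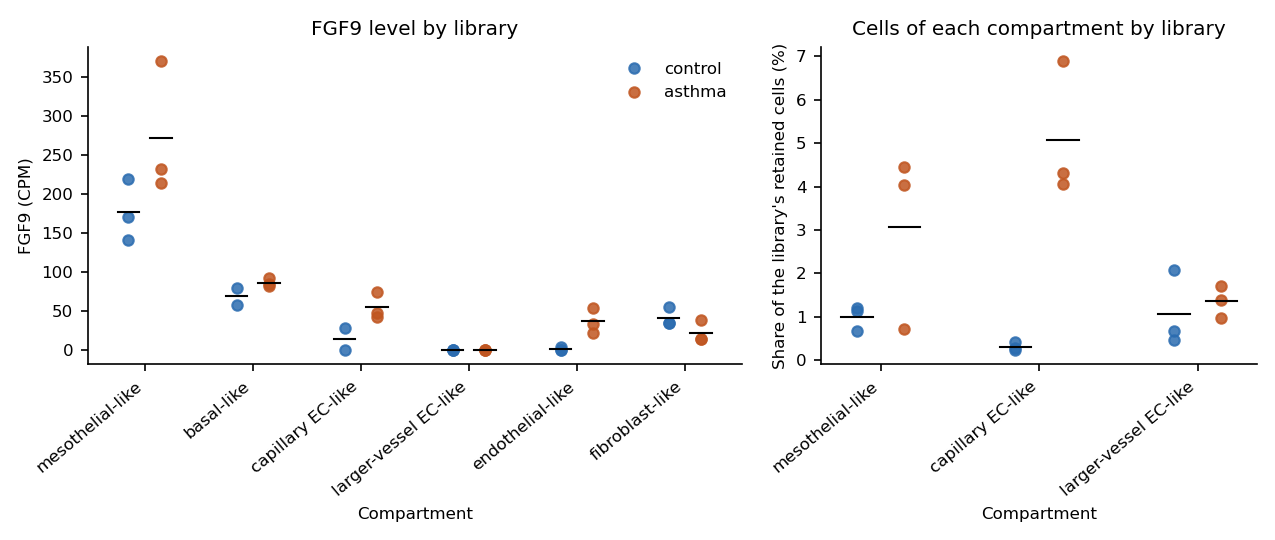
Left, level of FGF9 in CPM (vertical axis) in 6 compartments; right, share of each library's retained cells in 3 compartments (%). Points are libraries, blue for control and orange for asthma, and bars are group means; endothelial-like FGF9 is above the controls in all 3 asthma libraries, as is the share of capillary EC-like cells, and larger-vessel EC-like cells are at 0.

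In mesothelial-like cells FGF9 averaged 177 ± 39.97 CPM in control and 272 ± 85.3 CPM in asthma (SD, n = 3 each), a log2 fold change of 0.57 ± 0.26 (SE) that was not called (edgeR adjusted p = 0.997). Over all retained cells FGF9 had 4.49, 5.9 and 11.8 CPM in the control libraries and 30.9, 29.0 and 8.31 CPM in the asthma libraries. Asthma replicates 8 and 10 were high and asthma replicate 11 lay within the controls. The share of mesothelial-like cells ran alongside, at 0.668%, 1.19% and 1.13% in control and 4.45%, 4.03% and 0.718% in the asthma libraries. The sum over all cells gave a log2 fold change of 1.51 ± 0.55 (SE; edgeR adjusted p = 0.334).

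FGF2 in endothelial-like cells had the next lowest adjusted p. Levels were 23.1, 15.1 and 22.5 CPM in the control libraries and 12.1, 9.86 and 9.70 CPM in the asthma libraries, without overlap. The log2 fold change was -1.20 ± 0.37 (SE; edgeR adjusted p = 0.0834), so it was not called. In larger-vessel EC-like cells, where most endothelial UMIs of FGF2 lay, the groups overlapped at 18.6 to 30.3 CPM in control and 25.4 to 26.0 CPM in asthma, and the gene did not pass the filter for a test. The same shift in endothelial make-up as for FGF9 thus stands beside this value.

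FGF7 and FGFR1 gave negative differences in stromal-like cells as a whole. FGF7 had 201 ± 67.0 CPM in control and 120 ± 68.4 CPM in asthma (SD, n = 3 each; log2 fold change -0.9998 ± 0.36, SE; edgeR adjusted p = 0.185). Without asthma replicate 11 it was called (log2 fold change -1.56, edgeR adjusted p = 0.0251). FGFR1 had 215 ± 26.2 and 165 ± 37.6 CPM (log2 fold change -0.63 ± 0.22, SE; edgeR adjusted p = 0.169). In fibroblast-like cells the log2 fold change was -0.73 ± 0.30 for FGF7 and -0.33 ± 0.21 for FGFR1, with edgeR adjusted p of 0.435 and 0.666. The make-up differed too: RBP4-led cells, the sub-cluster with more FGF7, were 28 of 43, 51 of 80 and 126 of 165 in the control libraries and 22 of 78, 18 of 60 and 0 of 233 in the asthma libraries. Marker sums moved with the groups there without overlap, and their part in these values was not tested. The 10 macrophage markers, all with a UMI and APOE the most abundant, summed to 1927, 3013 and 1314 CPM in the control libraries and 6765, 7527 and 6616 CPM in the asthma libraries. The 8 smooth muscle markers, 7 with a UMI and TAGLN the most abundant, were higher in asthma (1155 to 1611 CPM against 286 to 584 CPM), and the 11 fibroblast markers, led by DCN, were lower (56050 to 58110 CPM against 64790 to 108100 CPM). In myofibroblast-like cells both were positive, 0.67 ± 0.37 and 0.48 ± 0.38, with edgeR adjusted p of 0.878 and 0.994, and FGFR1 there turned to -0.11 without control replicate 3. The immediate-early sum there was 18780 and 11190 CPM in controls 1 and 3, against 4071 and 6761 CPM in asthma replicates 8 and 11. Macrophage markers had 1490 and 607.5 CPM there against 1817 and 2368 CPM. Fibroblast markers had 14840 and 11690 CPM against 10970 and 10150 CPM, and larger-vessel EC markers 1189 and 1094 CPM against 572 and 618 CPM. Further marker lists did not overlap either, and the part of these sums was not tested. The stromal-like sum again joins unlike mixtures, since endothelial-like cells made up 180 of 652 control and 835 of 1654 asthma cells.

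FGFR2 had positive fitted differences in each epithelial compartment tested, but in epithelial-like cells as a whole the value was 0.15 ± 0.35 (SE; edgeR adjusted p = 0.934) and ran from -0.11 to 0.48 with single libraries left out. The log2 fold change was 0.35 ± 0.21 (SE) in AT2-like cells, 0.35 ± 0.30 in basal-like cells and 0.38 ± 0.26 in club-like cells, with edgeR adjusted p of 0.864, 0.965 and 0.9995. In AT2-like cells the group levels were 407 ± 47.7 CPM in control and 525 ± 32.1 CPM in asthma (SD, n = 3 each). The 10 macrophage markers, 9 with a UMI and FABP4 the most abundant, summed in AT2-like cells to 128, 83.7 and 35.9 CPM in the control libraries and 226.5, 373 and 162 CPM in the asthma libraries, and their part was not tested. FGFR3 in larger-vessel EC-like cells had 176 ± 40.4 CPM in control and 257 ± 36.3 CPM in asthma (SD, n = 3 each), a log2 fold change of 0.51 ± 0.26 (SE; edgeR adjusted p = 0.625). Capillary markers summed there to 5060 to 5449 CPM in control and 5503 to 8207 CPM in asthma and immediate-early genes to 5340 to 13660 CPM in control and 2712 to 4810 CPM in asthma, and their part was not tested. In endothelial-like cells as a whole, whose make-up differed as given for FGF9, FGFR3 went the other way. It had 131.6 ± 9.5 CPM in control and 110.5 ± 22.3 CPM in asthma (SD, n = 3 each). The log2 fold change there was -0.45 ± 0.21 (SE; edgeR adjusted p = 0.237) and was not called. In the epithelial subtypes the fitted differences of FGFR3 lay between -0.18 and -0.05 and changed sign with single libraries left out.

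Other genes of the pathway were taken from a list of 59, of which 55 were in the files. In endothelial-like cells 21 were tested, 3 were called higher in asthma and 0 lower, with a median log2 fold change of 0.33 against 0.02 over all genes. The share called over all genes there was 5.93%. In stromal-like cells 31 were tested, 4 were called higher (FGFR4, KL, SDC3 and DUSP6) and 1 lower (FLRT2), with a median of 0.14 against 0.01 and 2.03% of all genes called. With single libraries left out the stromal-like call of KL was lost in 4 of 6 fits and each of the other 4 calls in 5 of 6. The stromal-like calls of SDC3, FLRT2 and DUSP6 were also lost with a mitochondrial maximum of 10% (edgeR adjusted p = 0.0532, 0.0951 and 0.0645), and that of FGFR4 with mixed sub-clusters kept (0.0865). In fibroblast and muscle-like cells 27 were tested and 1 was called higher, where 0.419% of all genes were called. Nothing on the list was called in the other 14 compartments in which it was tested.

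The co-receptor KL (klotho), which binds FGFR1 for endocrine FGFs, rose in endothelial-like cells with a log2 fold change of 3.28 ± 0.58 (SE; edgeR adjusted p = 0.0154). Its levels were 9.88, 15.1 and 2.82 CPM in the control libraries and 43.3, 84.4 and 111 CPM in the asthma libraries. KL also lay in the capillary cells, at 83.6 and 113 CPM in controls 1 and 2, against 83.4, 116 and 153 CPM in the asthma libraries. These capillary levels overlapped, and the difference there was not called (log2 fold change 0.57 ± 0.59, SE; edgeR adjusted p = 0.839). The control levels rest on 3 UMIs each, in 12 and 13 cells, against 43, 76 and 111 UMIs in the asthma libraries. DUSP6, a phosphatase that damps MAP kinase signalling, and SDC3, a heparan sulfate proteoglycan, rose in endothelial-like cells by 1.35 ± 0.30 and 1.18 ± 0.30 on the log2 scale (SE; edgeR adjusted p = 0.0291 and 0.0494). In capillary EC-like cells they gave 0.44 ± 0.45 and 0.77 ± 0.51 (SE), neither of them called. With single libraries left out the call of KL was lost in 4 of 6 fits, that of DUSP6 in 5 and that of SDC3 in all 6, with highest edgeR adjusted p of 0.0855, 0.108 and 0.157. The call of SDC3 was also lost at resolution 1.6 (edgeR adjusted p = 0.0526) and with at least 200 genes and no maximum (0.0597). DUSP6 was at 302 to 753 CPM in capillary EC-like cells of the controls and at 77.9 to 130 CPM in their larger-vessel EC-like cells. Its capillary range rests on 27 and 8 UMIs in controls 1 and 2.

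FGFR4, another receptor of the family, rose in fibroblast and muscle-like cells, with a log2 fold change of 3.80 ± 0.61 (SE; edgeR adjusted p = 0.0403). It had 1, 0 and 3 UMIs in the control libraries and 32, 10 and 52 UMIs in the asthma libraries. The unnamed stromal cells gave 18, 2 and 35 of the asthma UMIs, and the fibroblast-like cells gave 14, 8 and 15. The make-up differed between the groups, with 7 unnamed stromal cells in control and 114 in asthma, and its part was not tested. In fibroblast-like cells alone FGFR4 had 3.92, 0 and 3.24 CPM in the control libraries and 20.2, 21.8 and 12.5 CPM in the asthma libraries. These levels did not overlap, but the gene did not pass the filter for a test there. The call of FGFR4 was lost in 5 of 6 fits with a library left out (highest edgeR adjusted p = 0.217). FLRT2, a membrane protein that binds FGF receptors, fell in stromal-like cells with a log2 fold change of -1.66 ± 0.29 (SE; edgeR adjusted p = 0.0338), but was not called in fibroblast-like cells, which held most of its stromal UMIs (-1.16 ± 0.48, SE; edgeR adjusted p = 0.437). The stromal call of FLRT2 was lost in 5 of 6 such fits, with an edgeR adjusted p of up to 0.189.

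Pathway genes outside the members also had their own places. FGF18, a ligand related to FGF8 and FGF17, was highest in myofibroblast-like cells at 155 ± 37.7 CPM (SD, n = 4). FGF1 was highest in pericyte-like cells at 42.3 ± 23.9 CPM (SD, n = 2). Of the heparan sulfate proteins, SDC1 was highest in AT1-like cells at 483 ± 155 CPM (SD, n = 4) and SDC4 in AT2-like cells at 556 ± 111 CPM (SD, n = 6). SULF1, which trims heparan sulfate outside the cell, was highest in mesothelial-like cells at 878 ± 269 CPM (SD, n = 6), the compartment with the most FGF9. The FGF-induced transcription factor ETV5 was highest in AT2-like cells at 68.6 ± 26.3 CPM (SD, n = 6), beside FGFR2. Pericyte-like cells followed at 52.9 ± 32.9 CPM (SD, n = 2). ETV4 was highest in basal-like cells at 50.5 ± 27.6 CPM (SD, n = 5). The remaining listed target factor, ETV1, had the most UMIs and was highest in unnamed stromal cells at 341 ± 116 CPM (SD, n = 3). AT2-like cells were second for ETV1 at 191 ± 33.0 CPM (SD, n = 6).

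Across 20 compartments the genes whose mean levels ran most like each member were named by Pearson's r, as a description that shares libraries and depth. FGF7 was followed by MFAP4, a microfibril protein (r = 0.976), and FGFR2 by AGR2, CXCL17 and C16orf89 (r = 0.981, 0.975 and 0.974), which were highest in AT2-like or club-like cells. FGFR1 was followed by LAMA4, a laminin of basement membranes, with AKAP12 and PLSCR4 (r = 0.938, 0.937 and 0.933). FGF9 ran with TRIM29, KLK10 and DSP (r = 0.882, 0.879 and 0.847), FGFR3 with ZDHHC2, TSPAN12 and EMP2 (r = 0.899, 0.886 and 0.878), and FGF2 with SRPX, HAS2 and CADM3 (r = 0.813, 0.793 and 0.789). For FGF10 the measure rests on 10 UMIs and is not given.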

How the data were processed

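Lung cells of 6 monkeys, 3 in each group, were measured by droplet-based 3′ single-cell RNA sequencing, 1 library per animal. Per the labels and methods, the authors aligned reads to macFas6 with Cell Ranger (2.1.1 in the submitters' processing notes; the sources name other versions too) and deposited a matrix of UMI counts for each library, raw whole numbers with no scaling. The deposited counts of a library summed to between 29014556 and 41489879 UMIs.

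A barcode was retained if it had more than 500 but fewer than 5000 genes, 500 UMIs or more, and a mitochondrial share (37 genes) no higher than 25%. Variable genes (2000) and 10 principal components gave a shared-neighbour graph, clustered with leidenalg 0.10.2 at resolution 0.8. Clusters were named "X-like" from marker lists (4 raised markers for a class, 3 for a subtype; raised means a log2 fold of at least 1 and 10% of cells). Clusters led by markers of several classes stayed unnamed. Blood monocyte clusters stayed unnamed for this reason. Thresholds for naming and for mixed sub-clusters were set after the clusters were seen, and the members and gene lists were chosen with earlier results of these data known. Doublets were not removed in the results given: the mixed sub-clusters (2264 cells) held 493 of the highest doublet scores, the named cells (19566) held 233, and an alternative left all 793 out.

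UMIs were summed per library and compartment (at least 10 cells, at least 2 libraries a group) and tested with edgeR 4.0.16 (TMM, filterByExpr, quasi-likelihood, Benjamini-Hochberg) in R 4.3.3, which was tested on simulated data. Alternatives were DESeq2 1.42.0, other cell filters, resolution 1.6, no filter on low counts, each library left out, pseudocounts of 1 and 50 CPM, shares thinned to 1500 UMIs and, added after the data were seen, mixed sub-clusters kept and the highest-compartment test adjusted over only the comparisons with 6 libraries. Named genes were the members, the pathway list, markers, the immediate-early list and the 3 genes most like each member by correlation over compartments among those with at least 20 CPM in 1 of them. Intervals cover counting error only. No sequence of the members was used here.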

Additional observations from a re-analysis of the deposited data

Results flagged for a closer look

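In 4 of the 10 compartments in which FGF9 was tested the levels of the groups did not overlap, and the fitted differences of these 4 were not all of one sign. The share of all genes without overlap in the same compartments is not given here. With so few libraries the count of 4 is a description and not a result about FGF9. The log2 fold change was 4.98 in endothelial-like cells, 2.03 in capillary EC-like cells and 0.19 in basal-like cells, where every asthma library lay above every control library. In basal-like cells mesothelial markers were also higher in every asthma library (280 to 442 CPM against 23.1 and 172 CPM) and immediate-early genes lower (8243 to 13330 CPM against 20440 and 23950 CPM), and their part was not tested. Macrophage, dendritic and smooth muscle marker sums were higher there in every asthma library too. The log2 fold change of FGF9 was -1.02 in fibroblast and muscle-like cells, where every asthma library lay below every control library (35.5, 32.7 and 27.0 CPM against 14.2, 11.02 and 22.6 CPM). Of the 130 UMIs of FGF9 there 127 lay in fibroblast-like cells, where the groups overlapped (-0.81, edgeR adjusted p = 0.526), and fibroblast-like cells made up 288 of 472 control and 371 of 819 asthma cells. The capillary EC-like cells are part of the endothelial-like cells and gave 105 of their 106 asthma UMIs of FGF9. The endothelial-like value alone was called, with an edgeR adjusted p of 0.586, 0.989 and 0.257 in the capillary EC-like, basal-like and fibroblast and muscle-like cells, and the difference between compartments was not tested.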

How the results depend on the processing

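No paired analysis was possible because the replicate numbers of the control group (1, 2 and 3) and the asthma group (8, 10 and 11) are not shared. The single FGF member called, FGF9 in endothelial-like cells, was called under DESeq2, without the filter on low counts, under each other cell filter, at resolution 1.6 and with doublets left out, and the count of members called ran from 0 to 1 with single libraries left out, with log2 fold changes from 3.90 to 7.76. Without asthma replicate 11 the 1 call was FGF7 in stromal-like cells in place of FGF9. Calls over all genes, summed over the 15 compartments, were 743, and 1904 with DESeq2, 3071 without the filter on low counts and 143 to 644 with single libraries left out. In endothelial-like cells the 459 calls became 1069 without the filter and 34 to 440 with single libraries left out. In the 5 classes refitted with mixed sub-clusters kept (added after the data were seen), 195 calls became 97 and no member was called in either.

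For the highest compartments, 0 of 70 comparisons passed, against 47 of 63 with a mitochondrial maximum of 10% and 46 of 70 with doublets left out, 40 of 49 when adjusted over only the comparisons with 6 libraries (added after the data were seen), and 0 to 0 with single libraries left out, where the exact permutation test cannot go below p = 0.0625. All 7 members kept their highest compartment in these fits and with pseudocounts of 1 and 50 CPM. Resolution 1.6, the looser cell filter and mixed sub-clusters kept were not run for this result.

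Of 522 alternative values of the members' log2 fold changes 37 changed sign, 34 of them from a value under 0.25 in size, and none of these pairs was called. With a mitochondrial maximum of 10% the value was -0.077 for FGF9 in T and NK-like, -0.059 for FGFR3 in stromal-like, -0.046 for FGF9 in stromal-like, 0.41 for FGFR1 in larger-vessel EC-like and 0.29 for FGFR1 in endothelial-like cells. With at least 200 genes and no maximum it was -0.012 for FGF9 in T and NK-like and -0.67 for FGFR3 in capillary EC-like cells. With doublets left out it was 0.0010 for FGFR1 in mesothelial-like and 0.0012 for FGFR3 in club-like cells, with mixed sub-clusters kept 0.21 for FGFR1 in mesothelial-like cells, and with DESeq2 -0.044 for FGFR1 in capillary EC-like cells. With single libraries left out the ranges that crossed 0 were, over all retained cells, -0.23 to 0.63 for FGF2 and -1.10 to 1.14 for FGF7. For FGF9 they were -0.23 to 0.30 in T and NK-like, -0.14 to 0.37 in stromal-like and -0.46 to 2.18 in epithelial-like cells. For FGFR1 they were -0.25 to 0.29 in capillary EC-like, -0.77 to 0.030 in larger-vessel EC-like, -0.11 to 1.30 in myofibroblast-like and -0.51 to 0.17 in endothelial-like cells. For FGFR2 the range was -0.11 to 0.48 in epithelial-like cells. For FGFR3 they were -0.13 to 0.35 in stromal-like, -0.31 to 0.10 in AT2-like, -0.54 to 0.30 in basal-like, -0.76 to 0.35 in club-like and -0.27 to 1.004 in capillary EC-like cells. Causes of these changes were not tested. Where leaving out a library left 1 in a group, that library was assumed to vary like the others.

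Depth limits FGF10, FGF2 and every value of the control capillary EC-like cells, which summed to 76478 UMIs against 1897015 in asthma.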

Other observations

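FGFR1 in B-like cells had 8, 2 and 8 UMIs in control replicates 1, 2 and 3 and 36, 7 and 6 UMIs in asthma replicates 8, 10 and 11. As levels these were 8.41, 2.64 and 9.44 CPM against 47.1, 11.7 and 44.3 CPM, without overlap, but the gene did not pass the filter on low counts there and the difference was not tested. Asthma replicate 11 held 32 B-like cells.

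Immediate-early genes respond quickly to handling and other stimuli. Of 20 found in the files 17 were tested in endothelial-like cells, and 2 were called lower in asthma, NR4A1 and FOSL2, where 5.93% of all genes were called in either direction. In myofibroblast-like cells 4 of 12 tested were called lower, ATF3, EGR1, FOS and FOSB, where 0.357% of all genes were called. That comparison had 2 libraries in each group, and asthma replicate 8 entered it with 10 cells. No immediate-early gene was called in mesothelial-like or fibroblast-like cells. With single libraries left out the call of NR4A1 was lost in 4 of 6 fits and that of FOSL2 in 5 of 6, and DESeq2 did not call FOSL2 (adjusted p = 0.0655). In myofibroblast-like cells leaving out a library left 1 in its group, so only the log2 fold changes of those fits are given. For FOSB, which DESeq2 also called, they ran from -2.62 to -2.26. They ran from -3.53 to -1.16 for ATF3, from -1.99 to -1.20 for EGR1 and from -2.69 to -1.14 for FOS. ATF3, EGR1 and FOS were called neither by DESeq2 nor with at least 200 genes and no maximum. The calls of EGR1 and FOS were also lost without the filter on low counts.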
